A study of Mus musculus with 4 samples.

Results

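The 9 genes described here are Ngfr, Tnfrsf1a, Tnfrsf1b, Tnfrsf14, Tnfrsf18, Tnfrsf21, Fas, Cd27 and Ltbr, which encode receptors of the tumor necrosis factor (TNF) receptor superfamily, out of 55401 genes in the deposited table. Ngfr was selected on its measured difference between the genotypes, a fall close to 2-fold in the knockout libraries with no set cutoff, and the other 8 because they belong to the same superfamily. The values of Ngfr between the genotypes are therefore a description without a test, and the other 8 genes were taken into the test across all genes. Follicular B (FOB) cells, mature B cells that recirculate through the follicles of lymphoid organs, were sorted as B220+CD93-CD23highCD21low from 7-week-old C57BL/6 mice. There were 4 libraries, 2 labelled WT (Hnrnpf fl/fl without Cre) and 2 labelled Hnrnpf KO (Hnrnpf fl/fl with a Cre that is active in B cells, called Hnrnpf bKO). All 4 therefore carry floxed Hnrnpf, the gene of an RNA-binding protein that controls alternative splicing. The Hnrnpf bKO libraries also differ from WT in carrying the Cre allele, whose own effect cannot be told apart from the loss of Hnrnpf. Whether the cells of several mice were pooled for a library is not given in the sources used here, and the study describes the sequencing as a single experiment.

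TNF receptor superfamily proteins sit in the cell membrane and bind ligands of the TNF family, most of which act as trimers. Members with a death domain in their cytoplasmic tail, such as TNFR1 (Tnfrsf1a), Fas, DR6 (Tnfrsf21) and the p75 neurotrophin receptor (Ngfr), bind death domain adaptors or other partners and can signal for apoptosis or for NF-kB. The others, such as CD27, GITR (Tnfrsf18), TNFR2 (Tnfrsf1b), HVEM (Tnfrsf14) and the lymphotoxin-beta receptor (Ltbr), bind TRAF adaptors and lead to NF-kB and MAP kinases. In B cells the family also holds CD40, the receptor for T cell help, and the BAFF receptor (Tnfrsf13c), a survival receptor of mature B cells.

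Library totals lay between 15698567 and 18908963 counts. Log2 fold changes (log2FC) are Hnrnpf bKO against WT, SE is the standard error, and the adjusted p is that of edgeR (quasi-likelihood F test, corrected by Benjamini-Hochberg across 14123 genes). A gene is called where its adjusted p does not exceed 0.05. Hnrnpf itself was counted 5780 and 6634 times in WT against 1167 and 1194 in Hnrnpf bKO, with a log2FC of -2.32 (SE 0.06, adjusted p = 1.05e-10). These p-values measure the spread between 2 libraries per genotype, which may be technical. The 8 markers of FOB and other B cells examined were all detected, with a summed level of 13335 to 13511 CPM (read counts scaled to library size) in WT and 14223 to 14288 in Hnrnpf bKO. Fewer cells of a type and less RNA per cell cannot be told apart in these bulk libraries.

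The promoter windows of Ngfr and Cd27 are shown, the gene chosen for its fall and the tested member that was called, since both were lower in Hnrnpf bKO than in WT. Each window runs from 250 bases before to 50 bases after the RefSeq start of the gene (GRCm38.p6, minus strand for both), and capitals mark the 6 bases GGGCGG, or CCGCCC where they lie on the other strand. The windows are chr11:95587649-95587948 for Ngfr and chr6:125236978-125237277 for Cd27.
Ngfr: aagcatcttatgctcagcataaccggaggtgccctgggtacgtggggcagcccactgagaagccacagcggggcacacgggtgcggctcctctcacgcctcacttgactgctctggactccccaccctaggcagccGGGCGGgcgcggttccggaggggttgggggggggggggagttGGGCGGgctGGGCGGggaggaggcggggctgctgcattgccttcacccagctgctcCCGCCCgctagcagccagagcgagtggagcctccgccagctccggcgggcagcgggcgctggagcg
Cd27: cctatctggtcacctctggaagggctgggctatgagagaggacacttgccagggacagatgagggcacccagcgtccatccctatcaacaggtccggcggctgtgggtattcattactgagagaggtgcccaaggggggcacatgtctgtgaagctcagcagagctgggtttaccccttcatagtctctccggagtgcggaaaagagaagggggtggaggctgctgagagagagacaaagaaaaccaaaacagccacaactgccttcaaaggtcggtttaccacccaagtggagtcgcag
The Ngfr window has 71.7% G or C, 23 CpG dinucleotides and 4 GGGCGG motifs counted over both strands. The Cd27 window has 56.0% G or C, 7 CpG dinucleotides and no GGGCGG. Neither holds TATAAA on the strand of the gene or on the other. Across 32851 promoter windows of the same length, 35.7% hold GGGCGG and 13.6% hold TATAAA, and the medians are 7 CpG dinucleotides and 52.7% G or C. All 9 genes had a RefSeq promoter window, and a motif match is a description of the letters in this window.

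Ngfr (ENSMUSG00000000120) encodes the p75 neurotrophin receptor, which binds neurotrophins as well as their precursors and is best known from neurons and Schwann cells. It lies on the minus strand at chr11:95568818-95587735 (GRCm38), with 1 annotated transcript of 3446 exonic bases and no annotated gene overlapping its exons. Ngfr was counted 174 and 191 times in WT against 89 and 88 in Hnrnpf bKO. On the scale of CPM this makes 10.6 and 10.03 CPM against 5.67 and 4.91 CPM. Both Hnrnpf bKO libraries were below both WT libraries, and the libraries of a genotype lay close together. The mean was 10.3 ± 0.42 CPM (SD, n = 2) in WT and 5.29 ± 0.54 CPM (SD, n = 2) in Hnrnpf bKO, which is 51.2% of WT. The log2FC was -0.97 with an SE of 0.18 and a 95% interval from -1.35 to -0.58. These values chose the gene and test nothing. The FPKM (fragments scaled by exon length and by library total) of Ngfr were 3.09 and 2.93 against 1.65 and 1.41. By its mean FPKM over the 4 libraries Ngfr stood above 30.1% of the tested genes.

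Cells other than B cells that are known to make Ngfr were looked for by their markers. Sox10, used here as a marker of Schwann cells, had 0 counts in all 4 libraries. The 3 Schwann cell markers examined had at most 3 counts each in every library. Of 10 markers of follicular dendritic and stromal cells, Madcam1, Pdpn, Pdgfra, Col1a2 and Lum were at 0 in every library. Their summed level, carried by Mfge8, was 8.06 to 10.6 CPM in WT and 12.3 to 14.8 in Hnrnpf bKO, and their part in the level of Ngfr was not tested. Plasmacytoid dendritic cell markers (4 of 4 detected) summed to 44.9 to 49.0 CPM in WT and 34.6 to 44.8 in Hnrnpf bKO. Most of that sum was Pacsin1 (41.3 and 44.9 CPM in WT, 41.0 and 29.2 in Hnrnpf bKO), whereas the log2FC of Siglech and Ccr9 were 0.56 and 0.26. The part of these cells in the level of Ngfr was not tested.

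The partners of Ngfr in neurotrophin signaling ranged from undetected to a mean FPKM over the 4 libraries of 9.64 for Bex3, beside 2.27 for Ngfr. Of 11 genes listed for the ligands, their other receptors and the co-receptors of Ngfr, 5 had 0 counts in every library, namely the ligands Bdnf and Ntf3, the receptor tyrosine kinase Ntrk2, and Lingo1 and Rtn4r, partners of Ngfr in the receptor for myelin inhibitors. A count of 0 allows up to 3 counts in a library, for counting error alone. The 4 genes that passed the filter on low counts were Sort1, Sorcs2, Maged1 and Bex3, and edgeR called 0 of the 4, beside 6.97% of all tested genes, with 1 at an unadjusted p under 0.05 (Bex3) and 0 by DESeq2. Their median log2 fold change was 0.30. Bex3, a small protein that binds the death domain of Ngfr, was counted 111 and 176 times in WT against 173 and 188 in Hnrnpf bKO (log2FC 0.42, SE 0.18, adjusted p = 0.196). Sorcs2, a sortilin-family co-receptor, was counted 51 and 87 times in WT against 71 and 100 in Hnrnpf bKO (log2FC 0.39, SE 0.26, adjusted p = 0.438). Maged1, an adaptor that binds Ngfr, was counted 16 and 46 times in WT against 38 and 29 in Hnrnpf bKO, and its libraries overlapped.

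Cd27 (ENSMUSG00000030336) was, of the 7 members tested, the gene that passed the test. CD27 is a costimulatory receptor of T cells and B cells that binds CD70, and it is used as a marker of memory B cells in humans. Cd27 was counted 404 and 429 times in WT against 193 and 245 in Hnrnpf bKO. These correspond to 24.7 and 22.5 CPM against 12.3 and 13.7 CPM, so that the genotypes were separated by more than the libraries within them. Cd27 fell from 23.6 ± 1.52 CPM (SD, n = 2) to 13.0 ± 0.96 CPM (SD, n = 2), to 55.0% of WT or 1.81-fold lower. The log2FC was -0.86 (SE 0.12, 95% interval -1.11 to -0.61, adjusted p = 8.26e-04). With each library left out in turn, the log2 fold change stayed between -0.94 and -0.79 and the adjusted p between 7.55e-05 and 0.0035. On the authors' FPKM the call was lost in limma (log2FC -0.77 on the log2(FPKM + 1) scale), and the highest adjusted p over all alternatives was 0.0604. Cd70, the ligand of CD27, had 0 counts in all 4 libraries.

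Cd27 lies on the minus strand at chr6:125232622-125237010, 7.31 Mb from Hnrnpf on the same chromosome. Its whole length falls within an intron of Vamp1, a vesicle fusion protein gene on the plus strand, as drawn in the map of both genes. No annotated exon of Vamp1 meets an exon of Cd27. The Cd27 exons share 129 bases (5.54% of their length) with the microRNA gene Mir8113, which lies wholly within them. Mir8113 had 0 counts in every library, which does not settle how reads over the shared bases were assigned. The strand setting of the authors' counting is not given in the sources used here, so where strand was not used, reads from unspliced Vamp1 RNA cannot be told apart from Cd27 reads. Vamp1 fell as well, counted 3714 and 4286 times in WT against 2799 and 3048 in Hnrnpf bKO (log2FC -0.38, SE 0.05, adjusted p = 9.24e-04). The part of Vamp1 in the level of Cd27 was not tested. Of 17 tested genes within 200 kb of Cd27, Tnfrsf1a included, 2 were called lower (Vamp1 and Tapbpl) and 1 higher (Acrbp). Among all tested genes 2.83% were called lower and 4.15% higher, and with so few neighbours these counts are a description. Within 200 kb of Ngfr 6 genes were tested, with adjusted p-values from 0.0865 for Slc35b1 to 0.564 for Spop.

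**Figure D1:**
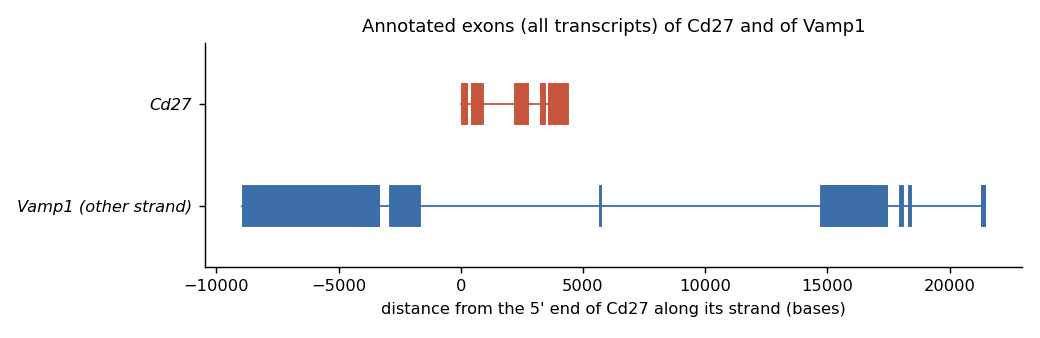
Map of the annotated exons of Cd27 (upper row) and Vamp1 (lower row, opposite strand), drawn to scale against the distance in bases from the 5' end of Cd27 along its strand. Boxes are exons of all transcripts and lines are introns, and the nearest Vamp1 exons lie at -1651 and 5656 bases, on either side of the Cd27 exons, which reach from 0 to 4388.

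Cells other than follicular B cells that express Cd27 were looked for by their markers. All 9 T cell markers were detected, with a summed level of 38.5 to 53.5 CPM in WT and 35.4 to 44.3 in Hnrnpf bKO. These ranges overlap, and the log2 fold change was below 0 for 8 of the 9 markers and above 0 for 1 (median -0.27). Plasma cell markers summed to 328 to 351 CPM in WT and 324 to 326 in Hnrnpf bKO. Irf4 made up most of this (232 and 236 CPM in WT, 215 and 220 in Hnrnpf bKO). The log2 fold change was below 0 for 2 of the 5 plasma cell markers and above 0 for 3 (median 0.06). Marginal zone B cell markers (6 of 6 detected) summed to 1348 to 1549 CPM in WT and 1139 to 1146 in Hnrnpf bKO, with Cr2, S1pr3 and Dtx1 lower and Cd1d1 higher. Most of that sum was Cr2 (1083 and 900 CPM in WT, 718 and 713 in Hnrnpf bKO). Germinal center markers summed to 179.8 to 212 CPM in WT and 160.1 to 164 in Hnrnpf bKO, mostly from Bcl6. The CD23high CD21low gate of the sort is meant to leave out marginal zone B cells, but the study does not report the sorted cells as fully pure. The part of T cells, plasma cells, marginal zone B cells and germinal center cells in the fall of Cd27 was not tested.

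Of the 8 members other than Ngfr, 7 passed the filter on low counts and 1 of the 7 was called, Cd27, which was lower, beside 6.97% of all tested genes called and 2.83% called lower. None was called higher, beside 4.15% of all tested genes, with 1 higher at an unadjusted p under 0.05 (Tnfrsf18) and 0 by DESeq2. None of the 7 reached 2-fold together with an adjusted p within 0.05, a rule met by 0.899% of all tested genes. The median log2 fold change of the 7 was -0.20. The libraries of the genotypes did not overlap for 5 of the 7, beside 50.1% of all tested genes. In 3 of the 7 both Hnrnpf bKO libraries were below both WT libraries, beside 24.8% of all tested genes, and in 2 both were above, beside 25.3%. With so few genes these counts are a description and not a result about the receptors. The plot of the members by library shows these values.

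**Figure D2:**
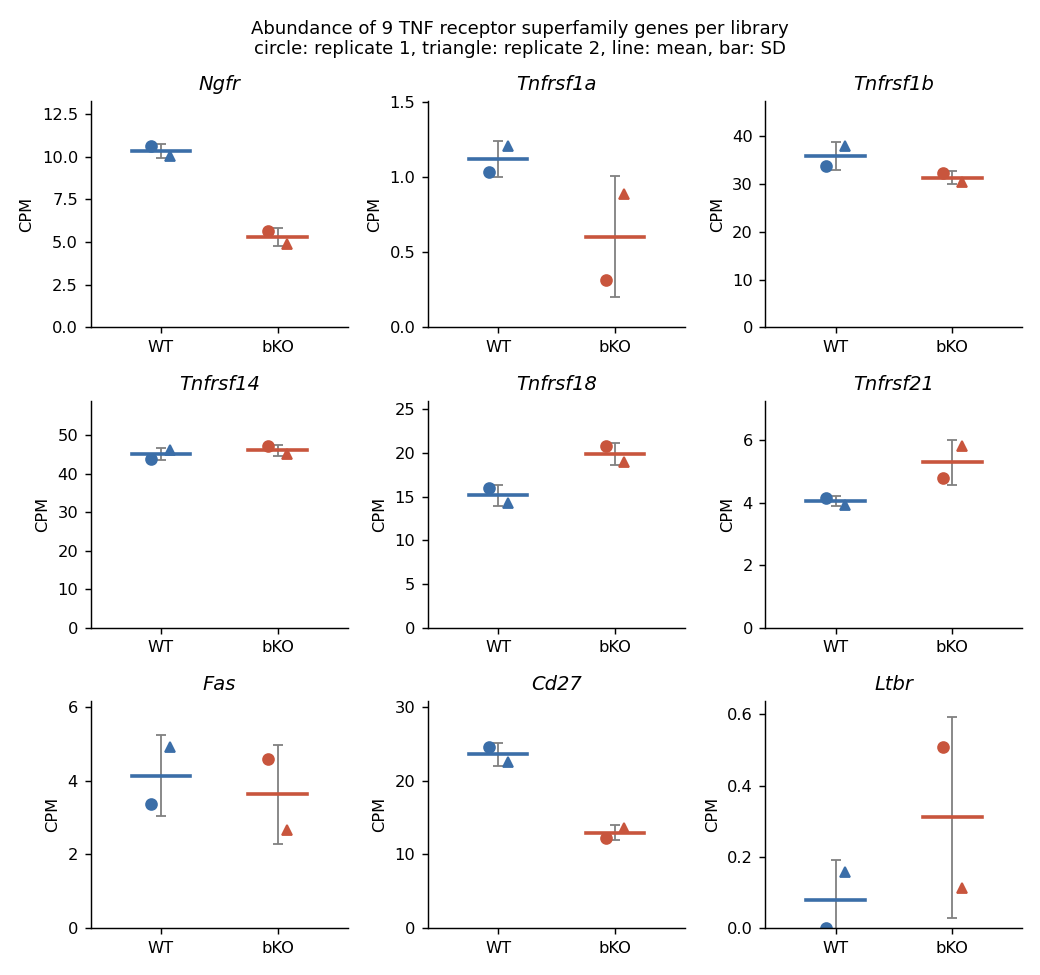
Level of each of the 9 genes in CPM (vertical axis, starting at 0 in every panel) in the WT and Hnrnpf bKO libraries. Circles are replicate 1, triangles replicate 2, horizontal lines the mean and bars the SD of 2 libraries. Ngfr and Cd27 show 2 close groups, at 10.3 against 5.29 CPM and 23.6 against 13.0 CPM, while the libraries of Tnfrsf14 and Fas overlap.

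Of the death domain receptors other than Ngfr, none was called. Tnfrsf1a (ENSMUSG00000030341, chr6:125349362-125362484), the TNF receptor that can signal both inflammation and cell death, was counted 17 and 23 times in WT against 5 and 16 in Hnrnpf bKO. Its log2FC of -0.86 is the size of that of Cd27, but at this depth it had an SE of 0.53, an interval from -1.99 to 0.28 and an adjusted p of 0.400. It ranged from -1.80 to -0.33 with 1 library left out, so the size rests on single libraries. Tnfrsf21 (ENSMUSG00000023915, chr17:43016555-43089189), the death receptor DR6, was counted 68 and 75 times in WT against 75 and 104 in Hnrnpf bKO, 4.15 and 3.94 CPM against 4.78 and 5.80. Both Hnrnpf bKO libraries of Tnfrsf21 were above WT, and the log2 fold change of 0.39 (SE 0.23, 95% interval -0.10 to 0.88, adjusted p = 0.371) did not pass the test.

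Fas (ENSMUSG00000024778, chr19:34290666-34327772), the death receptor that removes activated and germinal center B cells, was counted 55 and 94 times in WT against 72 and 48 in Hnrnpf bKO. The libraries differed more within each genotype than between genotypes, at 3.36 and 4.94 CPM in WT against 4.59 and 2.68 in Hnrnpf bKO. The log2FC was -0.21 (SE 0.30, 95% interval -0.87 to 0.45, adjusted p = 0.758), and it became 0.10 without WT replicate 2 and 0.14 without Hnrnpf bKO replicate 2. Fas is a marker of germinal center B cells, and the order of the 4 libraries by Fas was shared by 3 of the 5 germinal center markers examined. Mki67, a proliferation marker, was at 33.0 and 52.0 CPM in WT and at 50.2 and 23.5 CPM in Hnrnpf bKO. S1pr2 and Mybl1 had the same order, and Bcl6 and Rgs13 did not. With 4 libraries this is a description of their order, and the part of germinal center cells in the level of Fas was not tested.

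**Figure D3:**
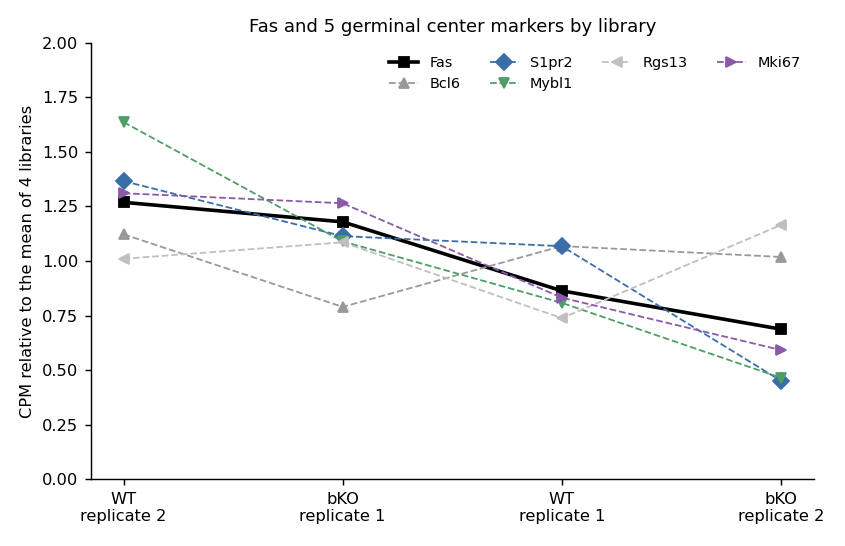
Level of Fas (black) and of 5 germinal center markers in each library, as CPM divided by the mean of the 4 libraries (vertical axis, no unit), with libraries on the horizontal axis in the order of Fas. Fas, S1pr2, Mybl1 and Mki67 go down together from WT replicate 2 to Hnrnpf bKO replicate 2, and Bcl6 and Rgs13 do not. Lines only join the points of a gene.

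Of the receptors that bind TRAF adaptors, Cd27 alone among the tested members was called. Tnfrsf18 (ENSMUSG00000041954, chr4:156026164-156028895) encodes GITR, a costimulatory receptor best known from regulatory T cells. It was counted 262 and 273 times in WT against 326 and 341 in Hnrnpf bKO, or 16.0 and 14.3 CPM against 20.8 and 19.0 CPM, with both Hnrnpf bKO libraries above WT. The log2FC of 0.39 (SE 0.12, 95% interval 0.14 to 0.65) had an adjusted p of 0.0688, and of 0.0458 with no filter on low counts. The exons of Tnfrsf18 share 414 bases, 27.2% of their length, with those of Gm16008 on the other strand, which had between 1 and 14 counts per library. Tnfrsf1b (ENSMUSG00000028599, chr4:145213463-145246870), the TNF receptor that lacks a death domain, was counted 553 and 723 times in WT against 508 and 545 in Hnrnpf bKO. Both Hnrnpf bKO libraries of Tnfrsf1b were below WT on the scale of CPM (33.8 and 38.0 against 32.4 and 30.4), with a log2 fold change of -0.20 (SE 0.09, adjusted p = 0.254).

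Tnfrsf14 (ENSMUSG00000042333, chr4:154921933-154928563) encodes HVEM, which binds LIGHT and the inhibitory receptor BTLA. It was at 43.9 and 46.2 CPM in WT and at 47.1 and 45.1 CPM in Hnrnpf bKO, so the libraries overlapped. Its log2FC was 0.03 (SE 0.08, adjusted p = 0.874), and the 95% interval from -0.14 to 0.20 bounds the size that a difference could have. Ltbr (ENSMUSG00000030339, chr6:125306571-125313885), which binds lymphotoxin and is known from stromal and myeloid cells rather than lymphocytes, was counted 0 and 3 times in WT against 8 and 2 in Hnrnpf bKO. Ltbr did not pass the filter on low counts and was not tested. Its counts were highest in Hnrnpf bKO replicate 1, and the libraries of the genotypes overlapped. Myeloid markers (8 of 8 detected) summed to 24.1 to 28.9 CPM in WT and 29.5 to 40.5 CPM in Hnrnpf bKO. S100a8 and S100a9 rose (log2FC 1.53 and 1.34), whereas Cd68 (-0.55) and Adgre1 (-0.86), which did not pass the test, had both Hnrnpf bKO libraries below WT. The sort on B220 and CD23 is meant to leave out myeloid cells, though the myeloid markers above were detected. The part of myeloid cells in the counts of Ltbr was not tested.

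Levels can be set against each other on the scale of FPKM, which divides by exon length. In WT, Tnfrsf14 was the most abundant member at a mean FPKM of 31.5. Cd27 (10.2), Tnfrsf18 (9.99) and Tnfrsf1b (9.43) followed, and neighbours in that order overlapped between libraries. Ngfr came next at an FPKM of 3.01, then Fas at 2.02, Tnfrsf21 at 0.99, Tnfrsf1a at 0.435 and Ltbr at 0.035, each apart from its neighbours in both WT libraries. In Hnrnpf bKO, Tnfrsf14 was again at the top with an FPKM of 31.9, followed by Tnfrsf18 (13.0), Tnfrsf1b (8.19) and Cd27 (5.55), all apart from each other. Cd27 was thus in the second place in WT and in the fourth in Hnrnpf bKO, and Ngfr moved from the fifth place to the sixth, at 1.53 beside 1.76 for Fas, from which it was not separated. Tnfrsf1a (0.23) and Ltbr (0.135) overlapped at the bottom of the order in Hnrnpf bKO.

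In the wider superfamily of 27 receptors other than Ngfr, 20 passed the filter, 3 were called lower and none higher, beside 2.83% and 4.15% of all tested genes, with 2 higher at an unadjusted p under 0.05 (Tnfrsf18 and Tnfrsf10b) and 0 by DESeq2. Their median log2 fold change was -0.15. Beside Cd27, the called genes were the receptors of the B cell survival factors BAFF and APRIL. Tnfrsf13c, the BAFF receptor, was counted 6192 and 7386 times in WT against 4740 and 5200 in Hnrnpf bKO (log2FC -0.37, SE 0.05, adjusted p = 7.13e-04). Tnfrsf13b, which encodes TACI, was counted 5058 and 6514 times in WT against 4398 and 4586 in Hnrnpf bKO (log2FC -0.28, SE 0.06, adjusted p = 0.0157). The call of Tnfrsf13b was lost without WT replicate 2 (adjusted p = 0.0671) and without Hnrnpf bKO replicate 2 (0.125). A receptor was called higher without WT replicate 2 (Tnfrsf10b) and without Hnrnpf bKO replicate 1 (Tnfrsf26). Cd40, at a mean FPKM of 41.0 in WT and 38.6 in Hnrnpf bKO, was the third most abundant receptor after these and had a log2 fold change of -0.08 (SE 0.06, adjusted p = 0.510). Tnfrsf11b, Eda2r and Edar had 0 counts in every library.

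Among 18 ligands of the family, 7 passed the filter, 3 were called lower and none higher, beside 2.83% and 4.15% of all tested genes, with 1 higher at an unadjusted p under 0.05 (Tnfsf9) and 0 by DESeq2. Their median log2 fold change was -0.25. The 3 genes are neighbours on chromosome 17 and were also the most abundant ligands by FPKM. Tnf, the ligand of Tnfrsf1a and Tnfrsf1b, fell, with counts of 432 and 579 in WT against 267 and 341 in Hnrnpf bKO (log2FC -0.66, SE 0.11, adjusted p = 0.00340). Lta, lymphotoxin-alpha, which binds the same receptors as a soluble trimer, fell from 721 and 867 counts to 492 and 597 (log2FC -0.47, SE 0.08, adjusted p = 0.00454). Ltb, which joins Lta in the membrane-bound ligand of Ltbr, fell from 10695 and 12946 counts to 8362 and 10518 (log2FC -0.25, SE 0.06, adjusted p = 0.0142). The call of Ltb was lost without Hnrnpf bKO replicate 1 (adjusted p = 0.153). Fasl, Tnfsf18 and Tnfsf14, ligands of Fas, GITR and HVEM, had at most 13 counts in any library and were not tested.

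**Figure D4:**
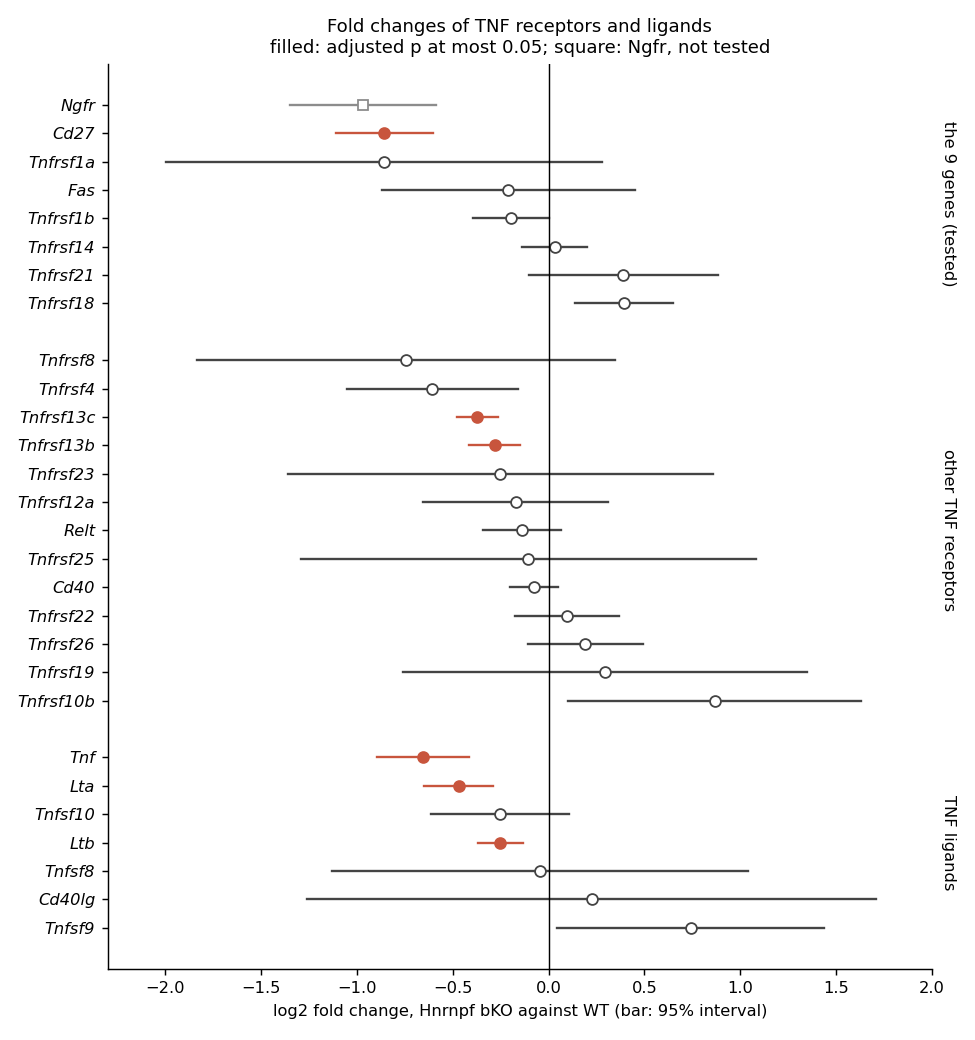
Log2 fold change of Hnrnpf bKO against WT (horizontal axis) for the tested genes among the 9 receptors, the other TNF receptors and the TNF ligands, with bars for the 95% interval. Filled circles passed an adjusted p of 0.05 and the open square is Ngfr, which was not tested. The 6 filled genes (Cd27, Tnfrsf13c, Tnfrsf13b, Tnf, Lta and Ltb) all lie below 0.

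All 35 adaptors, kinases, caspases and ubiquitin enzymes listed downstream of the receptors passed the filter. Of these 1 was called higher and none lower, beside 4.15% and 2.83% of all tested genes, with 4 lower at an unadjusted p under 0.05 and 0 by DESeq2, and their median log2 fold change was -0.03. The called gene was Map3k5, the stress kinase ASK1, counted 2421 and 2505 times in WT against 2653 and 3355 in Hnrnpf bKO (log2FC 0.35, SE 0.07, adjusted p = 0.00789). The number of called adaptors rose to 3 without WT replicate 2 (Map3k5 and Fadd higher, Ikbkb lower) and to 2 without Hnrnpf bKO replicate 2 (Map3k5 higher, Traf3 lower). The most abundant by FPKM were Rbck1, Birc3 and Sharpin, 2 parts of the linear ubiquitin ligase and a TRAF-bound inhibitor of apoptosis, with log2 fold changes of 0.02, 0.02 and 0.09 and adjusted p-values of 0.901, 0.923 and 0.341. The calls of Tnfrsf13c, Tnfrsf13b, Tnf, Lta, Ltb and Map3k5 were lost in both limma fits on FPKM.

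The deposited table of altered splicing lists 1556 events in 1173 genes and holds none for the 9 members. Of all tested genes, 8.22% have at least 1 event in it. Events are listed for 3.58% of the genes with a mean FPKM under 1, where 1 of the tested members lies, for 7.61% of those from 1 to 5 (3 members), for 10.1% of those from 5 to 20 (3 members) and for 9.91% of those above (1 member). At such shares an absence from the table is common at the level of every member. Among the 28 receptors Cd40 alone has events, 5 in all, of which 3 are skipped exons, 1 is a retained intron and 1 a pair of mutually exclusive exons. No ligand has an event, and 7 of the 35 adaptor genes have 9, which include 2 skipped exons of Traf3, the adaptor of CD40 and BAFF receptor signaling. Maged1 has 1 skipped exon.

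The tested genes whose levels over the 4 libraries were most like those of Ngfr were found by the Euclidean distance between log2(CPM + 0.5) values, each centred on its own mean. Among the nearest were Pltp (distance 0.103), Gm10916 (0.112), Ppcdc (0.122) and Kcng1 (0.125). Pltp encodes a phospholipid transfer protein and was counted 334 and 405 times in WT against 178 and 179 in Hnrnpf bKO. Kcng1, a potassium channel subunit, was counted 337 and 407 times in WT against 192 and 197 in Hnrnpf bKO. The distance takes in the difference between genotypes that chose Ngfr, so likeness to Ngfr is a description and no test. Cd27 stood at a distance of 0.25 from Ngfr, with 42 of the 14123 tested genes nearer. Its Hnrnpf bKO replicate 2 was above replicate 1 (13.7 and 12.3 CPM), the reverse of Ngfr (4.91 and 5.67 CPM).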

How the data were processed

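Libraries of FOB cell RNA, 2 labelled WT and 2 labelled Hnrnpf KO, were grouped by these labels. The submitters' processing notes name bcl2fastq 2.17.1.14, FastQC 0.10.1, cutadapt 1.9.1, HISAT2 2.0.1 and HTSeq 0.6.1, with GRCm38, and the strand setting of the counting is not given in the sources used here. The deposited counts are whole numbers per gene without normalization. The deposited FPKM were computed by the authors from counts, exonic gene size and library total. The authors' splicing table, made with rMATS, holds their FDR and inclusion differences, which were not used, and its events were only counted.

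Counts were compared with edgeR 4.0.16 in R 4.3.3 (TMM, filterByExpr, quasi-likelihood F test, Benjamini-Hochberg adjustment over 14123 genes, no covariates). CPM values use TMM library sizes. The alternatives were DESeq2 1.42.0, RLE size factors, no filter on low counts, a minimum of 10 counts per library, limma 3.58.1 on log2(FPKM + 0.1) or on log2(FPKM + 1) where the mean FPKM reached 0.5, a block for the replicate number, and fits that left out each library. The 2 libraries of a genotype did not agree within counting noise (chi-square per degree of freedom 4.30 for WT and 3.86 for Hnrnpf bKO), so each was counted as 1 replicate. With 2 libraries per genotype exact permutation of 1 gene could not go below 0.333 and was not used.

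The members, gene lists and marker lists were chosen with earlier results of these data known. The genes named are the 9 members, Hnrnpf, Cd40, every called gene and the 3 with the highest mean FPKM in the receptor, ligand, adaptor and neurotrophin lists, and the genes most like Ngfr. Some genes under this rule or in the marker lists are not reported here. Other genes were named after their values were seen. Promoter windows are from RefSeq (GRCm38.p6), and gene coordinates are those of the deposited table, which match GENCODE M21.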

Additional observations from a re-analysis of the deposited data

How the results depend on the processing

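Ngfr was chosen for its fall in these libraries, so its direction under the alternatives is a description and no test. Its log2FC stayed below 0 in all 11 alternatives. It was -0.67 on the log2(FPKM + 1) scale, which shrinks differences of low genes, and between -1.07 and -0.86 with 1 library left out. Cd27 was lower in all 11 alternatives, between -0.94 and -0.77, and was called in 9. With limma on log2(FPKM + 0.1), 0 of the members other than Ngfr, 0 receptors, 0 ligands and 0 adaptors were called, and 45 genes in all. On log2(FPKM + 1) these counts were also 0 for the 4 lists, and 41 genes in all, against 985 by edgeR. At an unadjusted p under 0.05 both limma fits held 2 of 6 tested members other than Ngfr, 5 of 15 receptors, 4 of 5 ligands and 6 of 35 adaptors. The cause was not tested. With no filter on low counts, 2 members other than Ngfr (Cd27 lower, Tnfrsf18 higher) and 3 adaptors (Map3k5 and Fadd higher, Ikbkb lower) were called.

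Leaving out 1 library gave between 602 calls in all (without Hnrnpf bKO replicate 2) and 925, and between 1 and 3 adaptor calls. The lone library of a genotype is then assumed to vary like the other genotype. Tnfrsf14, near 0 throughout, changed sign without WT replicate 1 (-0.0060) and ranged up to 0.067 with 1 library left out, and Fas changed sign without WT replicate 2 (0.10) and without Hnrnpf bKO replicate 2 (0.14), from -0.64 without Hnrnpf bKO replicate 1. With 1 library left out, Rbck1 (-0.0020 to 0.029), Birc3 (-0.092 to 0.12) and Maged1 (-0.27 to 1.03) also changed sign, and none was called. The replicate numbers come from the labels alone. Deviations of same-numbered libraries from their genotype means had a correlation of -0.10 across 14123 genes, which are not independent replicates, and no source used here says that a number marks mice of the same litter or day, so no pairing was taken. With the replicate block 612 genes were called, Cd27 among them, and Tnfrsf13b was not (adjusted p = 0.0546). Of the values under these alternatives for the tested genes named by rule, other than Ngfr and the genes most like it, 198 kept their direction and side of the threshold, 18 were no longer called, 1 became called and 8 changed sign. Ltbr, Tnfrsf1a and Fas are limited by depth, with at most 8, 23 and 94 counts in any library.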
